A study of Rattus norvegicus with 14 samples.

Results

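Certain tiles of 1 kb in rat oesophagus had less DNA methylation than controls, both 1 day and 1 week after surgical repair. They are described here cytosine by cytosine and library by library. A tile entered the survey when it held at least 3 CpG cytosines that had at least 10 reads in 3 or more libraries of each group, and 14380 tiles on chromosomes 1 to 20 did so. A tile was a member when its mean methylation was at least 15 percentage points lower than in controls at both times and when every library from an operated animal lay below every control library. The rule found 292 members, which hold 1254 of the 71273 cytosines surveyed. The opposite rule, a gain of at least 15 points at both times with every operated library above every control, found 865 tiles, used below for comparison. The members were thus chosen by their measured differences from controls at both times, which are described without a test.

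The samples were oesophageal tissue of male rats of 8 to 9 weeks, and the strain is not given in the sources used here. Non-surgical controls (NSC, 4 libraries) were full-thickness oesophagus. Day 1 (5 libraries) was host tissue taken by punch from the 2 mm around the original defect, and Day 7 (4 libraries with a file) was new tissue taken from the area of the graft, an acellular bi-layer silk fibroin scaffold. All operated animals carried the graft, and no group with surgery alone or with another graft was part of the analysis. Tissue site, layers sampled and time differ together between the groups, so their effects cannot be told apart. Words such as loss and drop below mean a lower value than in the NSC libraries, since the groups are different tissue. The labels do not say that the libraries of a group came from separate animals, so the p-values below measure the spread between these libraries, which may be technical.

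Methylation of cytosine in CpG pairs is written by DNA methyltransferases, copied to the new strand after replication, and removed either by failure of that copying or by oxidation through TET enzymes followed by repair. Most CpG pairs of a mammalian genome are methylated, CpG-dense promoters are largely unmethylated, and enhancers often show a short stretch of lower methylation in the cell types that use them. Reduced representation bisulfite sequencing reads CpG cytosines in short fragments cut by MspI, and the percent methylation at a cytosine is the share of its reads that resisted bisulfite conversion. In a biopsy that percent is an average over all cells present, so a fall in the share of a cell type that is methylated at a site cannot be told apart from methylation lost within cells. Genes, sequence and markers of cell types were not used here, because annotation of the assembly of the files (mRatBN7.2) was not used.

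Reads summed over the listed cytosines of chromosomes 1 to 20 ran from 9007170 in Day 1 replicate 2 to 47558937 in NSC replicate 1. In Day 1 replicate 2 only 6.97% of listed cytosines had 10 reads, and 229 of the 292 members have no value in that library. All 13 libraries gave a value in 57 members, 1 library was missing in 128, and 2 or more were missing in 107. Over all 14380 tiles the median difference from NSC was 2.91 points at Day 1 and 1.39 points at Day 7, in the direction opposite to the members.

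By their medians, members were mostly methylated in NSC and mostly unmethylated in both operated groups, but this did not hold for every member. Their median methylation was 71.4% in NSC, 25.7% at Day 1 and 30.2% at Day 7, while the median of all tiles was 76.1%, 85.1% and 82.0%. The median difference of the members from NSC was -34.9 points at Day 1, with a range of -76.2 to -15.03, and -32.0 points at Day 7, with a range of -69.8 to -15.02. The drop reached at least 30 points at both times in 47.6% of members and at least 50 points in 24 members. In 161 members the NSC mean was 50% or more and both operated means were below 50%, whereas 44 members stayed at 50% or more at both times.

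**Figure D1:**
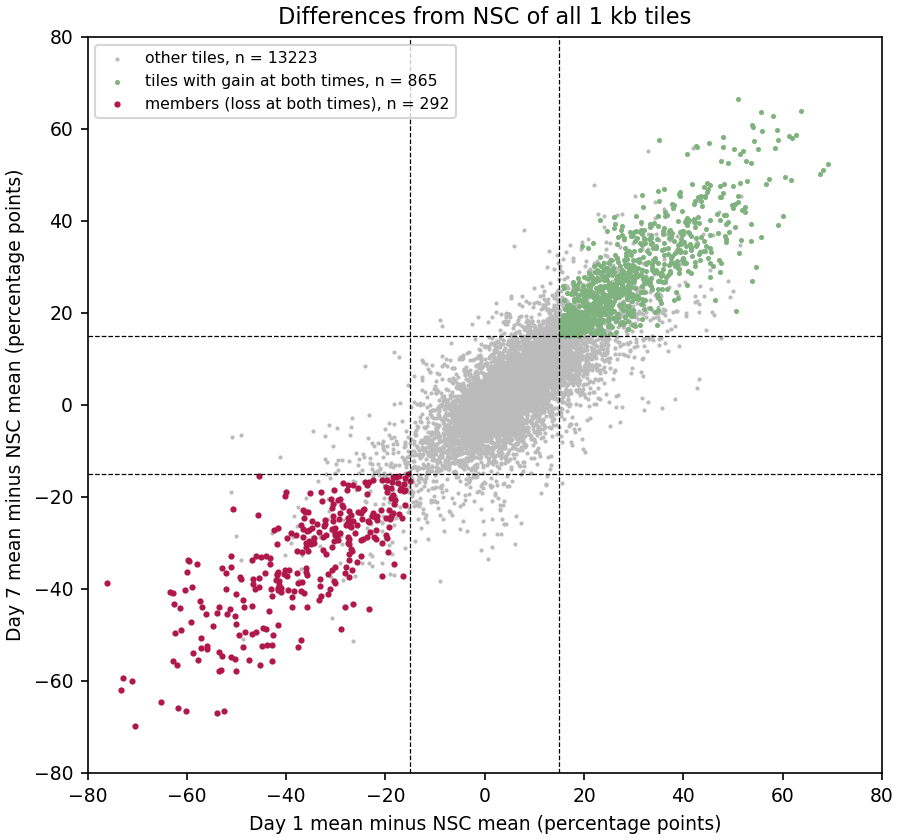
Difference of the group means from NSC for each of 14380 tiles, in percentage points, at Day 1 (horizontal) and Day 7 (vertical); dashed lines mark 15 points, the 292 members are dark red and the 865 tiles with gain are green. Both axes share the NSC libraries. The members are those of the 402 tiles at least 15 points lower at both times in which no operated library overlaps NSC, and the rest of the 402 lie among them.

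The steps of the rule show what each condition removed. A drop of 15 points or more was present in 498 tiles at Day 1, in 549 at Day 7 and in 402 at both times. The condition that no operated library overlaps NSC left 292 of those 402. Complete separation below NSC occurred in 390 tiles, 2.71% of all tiles, against 1477 with complete separation above NSC. Another 2936 tiles had an NSC mean below 15% and could not have become members. A test with edgeR's quasi-likelihood F test (Benjamini-Hochberg adjusted p below 0.05 over all tiles and a difference of at least 10 points) called 2.82% of all tiles lower at Day 1, 272 members among them, and 2.36% lower at Day 7, 239 members among them. Since the rule used these contrasts, nothing is read from those member counts.

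The rule requires a gap between NSC and the operated libraries in every member, so only its size is described. The lowest NSC library exceeded the highest operated library by a median of 11.1 points, by 10 points or more in 162 members and by less than 1 point in 10. The median standard deviation was 5.87 points in NSC, 9.02 at Day 1 and 7.98 at Day 7, against 3.83, 3.84 and 4.34 over all tiles. The 95% Wilson interval of the least certain library of a member reached a median of 13.1 points to either side. These intervals cover counting error only, since reads spanning several cytosines are counted at each and PCR copies are not marked.

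**Figure D2:**
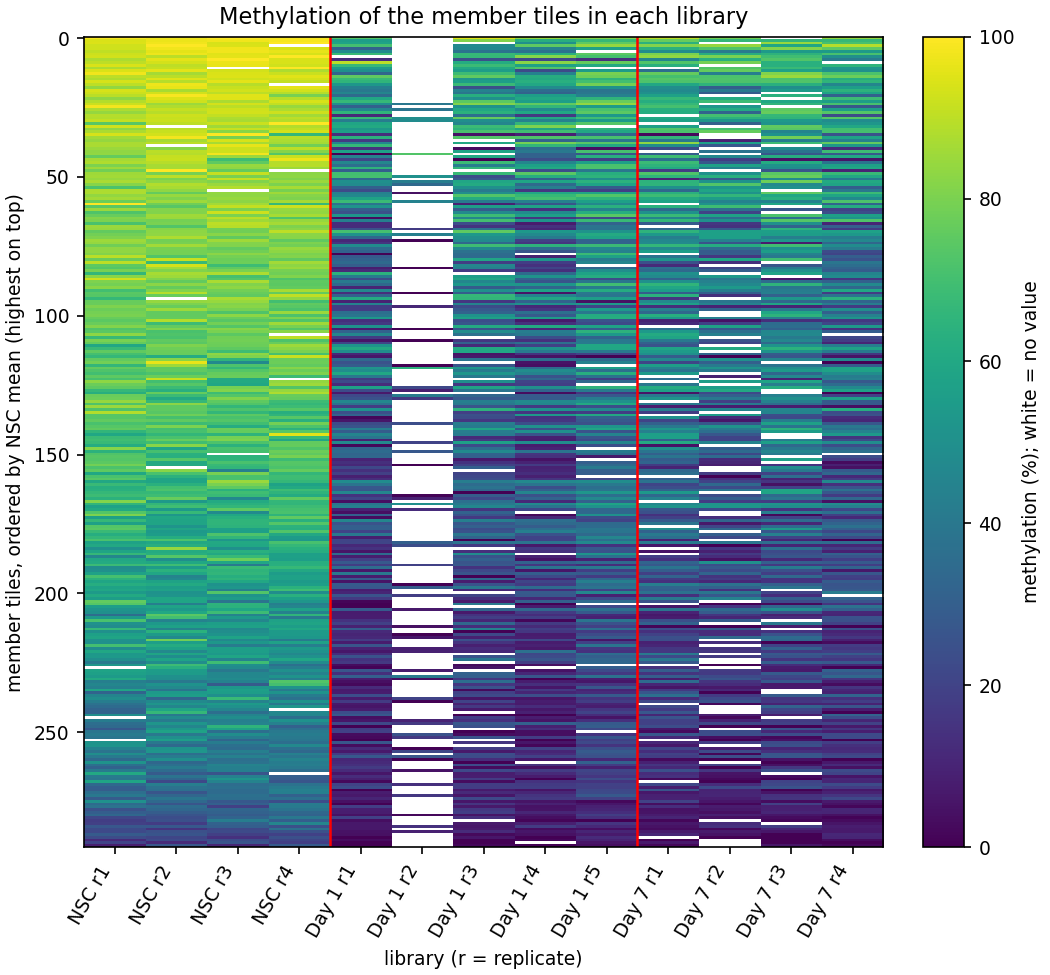
Methylation in percent (colour) of the 292 members (rows, ordered by NSC mean) in each of 13 libraries (columns), with red lines between the groups and white where a library has no value. The 4 NSC columns are lighter than the operated columns in every row, which the rule requires, and Day 1 replicate 2 is mostly white.

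Taken library by library over the 57 members read in all libraries, the NSC medians lay close together at 62.2%, 60.6%, 60.4% and 65.9% for replicates 1 to 4. The Day 1 medians were 18.1%, 16.1%, 25.3%, 19.4% and 31.8% for replicates 1 to 5, and the Day 7 medians were 29.5%, 25.9%, 31.8% and 22.1% for replicates 1 to 4. Day 1 replicate 5 and Day 7 replicate 3 stayed nearest to NSC, and the ranges of Day 1 and Day 7 overlap. Among operated libraries, Day 1 replicate 5 was the highest in 77 members and Day 7 replicate 3 in 76, while Day 1 replicate 1 was the lowest in 64. Day 1 replicate 2 was the lowest in 31 of the 63 members it read, 49.2%, and in 28 of the 57 read in all libraries. The value of a library sums only the cytosines with 10 reads in it, so libraries can be compared over different cytosines. Only 12 members had every cytosine of the rule read in every library. In the 103 tiles with gain that all libraries read, the same Day 1 replicate 5 and Day 7 replicate 3 had the lowest medians of their groups, 77.3% and 76.9%, and so were again the nearest to the NSC medians of 54.3% to 56.7%.

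Members were found at every level of NSC methylation that allowed a 15 point drop. They made up 2.49% of tiles with an NSC mean of 15 to 30%, 5.86% at 30 to 50%, 4.14% at 50 to 70%, 3.59% at 70 to 80%, 1.91% at 80 to 90% and 0.791% at 90 to 100%. Tiles with gain made up 24.9% of tiles at 15 to 30%, and 1 lay above 80%. The share of the NSC level that remained rose with that level. At Day 1 the median was 21.6% of the NSC value in the lowest class and 67.1% in the highest, and at Day 7 it was 16.8% and 71.8%. The 15 point limit itself forces a larger relative loss where NSC is low. Nearly complete loss, with both operated means below 10%, was seen in 19 members, 9 of them with an NSC mean of 15 to 30% and 8 with one of 30 to 50%. Only 6 members combined an NSC mean of 70% or more with both operated means below 20%.

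Of the 12 members with every cytosine of the rule read in every library, the largest drop was on chromosome 2 at 185531001 to 185532000. Its 4 cytosines lie between positions 185531122 and 185531256, and NSC replicates 1 to 4 read 80.7%, 76.6%, 82.4% and 74.5%. Day 1 replicates 1 to 5 read 18.1%, 10.96%, 22.9%, 11.5% and 20.2%, and Day 7 replicates 1 to 4 read 12.9%, 10.1%, 10.1% and 17.1%. All 9 operated libraries were far below NSC, with a gap of 51.7 points, the widest of any member. The means were 78.6 ± 3.6% (SD, n = 4), 16.7 ± 5.3% (SD, n = 5) and 12.6 ± 3.3% (SD, n = 4), from 146 to 902 reads per library. Here and below, reads of a tile are summed over its cytosines, so a read that spans several is counted at each. The 4 cytosines stood at 68.5%, 73.2%, 80.9% and 88.6% in NSC from first to last, but at 15.1% to 17.2% at Day 1 and 5.82% to 15.2% at Day 7, so the slope along the tile in controls was nearly level at Day 1, while at Day 7 the order of the cytosines was as in NSC.

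On chromosome 19 at 54823001 to 54824000 methylation was intermediate in controls and nearly gone at Day 7. NSC replicates read 48.1%, 57.2%, 57.1% and 55.7%, and Day 1 replicates read 9.2%, 4.5%, 13.3%, 12% and 19.0%. Day 7 replicates read 1.4%, 0%, 7.8% and 0%, so 2 libraries had no methylated read over the 5 cytosines. Day 7 lay below Day 1 in all libraries but Day 7 replicate 3. The difference of Day 7 from Day 1 was -9.30 points, with the smallest unadjusted p of all members (edgeR, 0.000138, adjusted p = 0.180).

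On chromosome 10 at 105906001 to 105907000 the Day 1 and Day 7 means stood apart. NSC replicates read 85.3%, 78.8%, 85.8% and 75.7%. Day 1 replicates spread from 0% to 47.8%, with a median of 18.8%, and Day 7 replicates were close together at 46.4%, 44.0%, 52.6% and 46.7%. Day 1 replicate 3, at 47.8%, lay within the Day 7 range, and the difference of 25.5 points between the times did not pass the test over all tiles (edgeR adjusted p = 0.468).

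On chromosome 4 at 152382001 to 152383000 the NSC libraries read 60.9%, 54.2%, 75.2% and 70.4%, the Day 1 libraries 9.4%, 12.8%, 14.8%, 21.03% and 33.1%, and the Day 7 libraries 26.7%, 22.4%, 15% and 21.4%. Day 7 lay wholly within the range of Day 1. On chromosome 1 at 61462001 to 61463000 the NSC libraries read 90.6%, 91.9%, 86.8% and 88.6%, the Day 1 libraries 42.5%, 48.3%, 49.5%, 44.3% and 54.0%, and the Day 7 libraries 57.5%, 52.2%, 54.3% and 48.7%. This intermediate level hides a split between cytosines. The first cytosine, at 61462129, stayed at 94.4%, 90.3% and 92.9% in NSC, Day 1 and Day 7, while the other 3, beginning 114 bp further on, went from 87.0% to 88.9% in NSC to 29.7% to 35.2% at Day 1 and 36.0% to 43.1% at Day 7. On chromosome 1 at 245397001 to 245398000 the NSC libraries read 59.5%, 47.2%, 56.2% and 51.0%, and the Day 7 libraries 16.4%, 16.2%, 16.4% and 18.7%. Its Day 1 libraries read 6.2%, 9.5%, 11.2%, 37.3% and 14.3%, with replicate 4 above the rest.

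**Figure D3:**
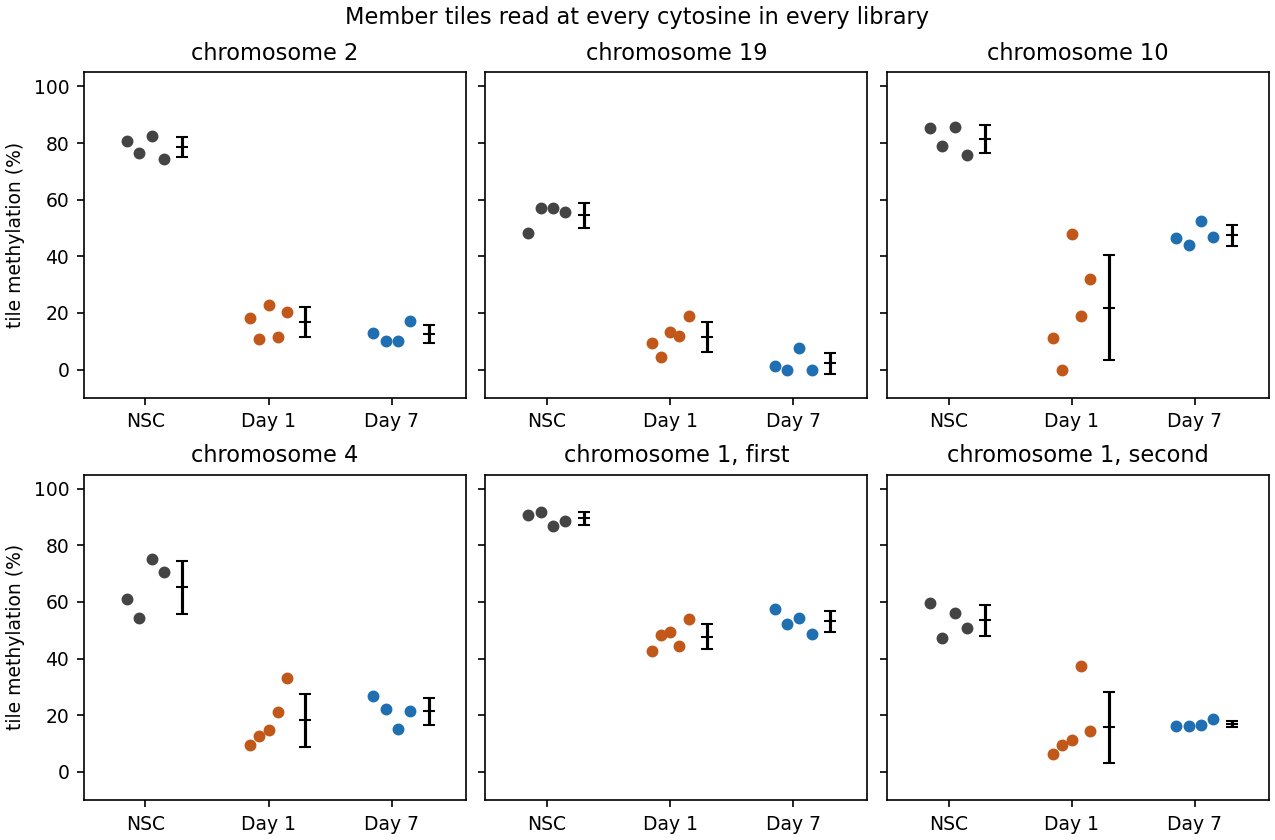
Tile methylation in percent in each library (points) with the mean and SD of each group (bars) for the 6 largest drops among members read at every cytosine in every library; the first tile of chromosome 1 is the one at 61462001 and the second the one at 245397001. No operated point reaches the NSC points in any panel, and the ranges of Day 1 and Day 7 overlap in all 6.

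The 6 largest drops among all members add 5 tiles that some libraries did not read at every cytosine, with 11 to 44 reads in the least read library of each. On chromosome 1 at 95724001 to 95725000 the means were 86.1 ± 12.2% in NSC (SD, n = 4), 15.6 ± 10.6% at Day 1 (SD, n = 4) and 16.2 ± 15.2% at Day 7 (SD, n = 4), from as few as 11 reads in a library. On chromosome 1 at 129181001 to 129182000 the means were 88.5%, 15.2% and 26.5%, and on chromosome 7 at 127782001 to 127783000 they were 87.3%, 14.4% and 28.0%. On chromosome 17 at 20275001 to 20276000 they were 75.2%, 4.2% and 15.2%, with Day 1 at 0% to 6.5% in all 4 libraries read. On chromosome 2 at 197151001 to 197152000 they were 73.8%, 8.7% and 9.3%. The Day 7 libraries of these tiles were widely spread, for example 2.4%, 51.5% and 25.5% in the chromosome 1 tile at 129181001.

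At the limit of the rule, the members nearest to it were on chromosome 15 at 54093001 to 54094000, with differences of -15.5 and -15.02 points from an NSC mean of 99.0%, and on chromosome 2 at 169113001 to 169114000, with differences of -15.03 and -16.6 points from 23.6%. Just outside lay tiles on chromosome 3 at 104907001 to 104908000, with -16.1 and -14.9 points, and on chromosome 5 at 138298001 to 138299000, with -14.7 and -19.8 points. The chromosome 2 tile shows how a tile mean can understate a change. Across 122 bp its NSC methylation fell from 73.0% at the first cytosine through 30.5%, 20.7% and 7.27% to 7.85% at the last, while the first cytosine read 15.9% at Day 1 and 27.1% at Day 7. The second read 11.9% and 5.09%, the third 6.48% and 2.37%, and the last differed from NSC by -1.01 and -3.26 points.

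The members' own cytosines were summed to choose the tiles, so a high share of lower cytosines is set by the rule and only the exceptions are informative. Of the 1254, 1186 (94.6%) were lower than NSC at both times, and 22 were higher at both times. In 248 members every cytosine was lower at both times, and in 44 at least 1 was not. Cytosines of a member are close together, with a median span of 104 bp and at most 300 bp in 256 members, and they partly come from the same reads. Within a member the losses still differed, by a median of 23.4 points between the cytosine that lost most and the one that lost least.

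The 8 members with 10 or more cytosines of the rule show these profiles best. On chromosome 5 at 159391001 to 159392000 all 22 cytosines, between positions 159391420 and 159391557, were lower at both times. The 3 NSC libraries with a value read 31.8%, 58.2% and 45.7%, the 4 Day 1 libraries 7.6%, 6.8%, 6.4% and 15.9%, and the 3 Day 7 libraries 17.1%, 20.8% and 7.7%. NSC differed along the tile from 15.1% to 72.8%, whereas no cytosine mean exceeded 19.0% at Day 1 or 24.6% at Day 7. On chromosome 10 at 43963001 to 43964000 all 12 cytosines were lower, from a tile mean of 28.8 ± 10.3% in NSC (SD, n = 4) to 1.7 ± 2.0% at Day 1 (SD, n = 3) and 2.2 ± 0.8% at Day 7 (SD, n = 3). The tiles on chromosome 1 at 207492001 to 207493000 (63.7%, 13.5% and 16.0%) and on chromosome 9 at 15169001 to 15170000 (61.5%, 14.6% and 11.6%) were lower at all 10 of their cytosines.

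In 3 of these 8 members the loss stopped within the tile at both times, and in another at Day 1 only. On chromosome 8 at 65715001 to 65716000, 4 cytosines over the first 39 bp stayed at 92.8% or more in every group. The next 5, from position 65715168 to position 65715304, went from 68.6% to 95.6% in NSC to 14.5% to 66.9% at Day 1 and 22.9% to 53.4% at Day 7. The last 2, at 533 and 663 bp, were back at 91.9% or more in every group. The lost stretch thus lay between flanks that kept their methylation, and the tile mean of 89.5% in NSC, 64.6% at Day 1 and 65.9% at Day 7 averages over both.

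On chromosome 12 at 9404001 to 9405000, 10 cytosines over 115 bp dropped together, by 44.3 to 61.2 points at Day 1 and 36.8 to 57.9 points at Day 7. The cytosine at 210 bp differed by less than 1 point, at 89.2%, 88.4% and 88.5%. The last one, at 292 bp, was higher after surgery, at 49.0% in NSC, 64.5% at Day 1 and 56.0% at Day 7. On chromosome 13 at 84023001 to 84024000 the first 7 cytosines over 220 bp were lower at both times, and the last 3, from 375 bp, stayed at 79% or more in every group.

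On chromosome 18 at 68974001 to 68975000 the loss stopped within the tile at Day 1 but reached all its cytosines, unequally, at Day 7. At Day 1 the first 7 cytosines, over 86 bp, read 87.8% to 94.2%, against 82.6% to 93.0% in NSC. The last 4, from 122 bp on, had dropped from 61.6% to 86.8% in NSC to 14.2% to 48.1%. At Day 7 the last 4 were at a similar 18.2% to 45.3%, but the first 7 were also below NSC, at 62.6% to 71.1%. A step remained at Day 7, with differences from NSC of -14.8 to -28.3 points at the first 7 and -41.6 to -61.8 points at the last 4. The 9 cytosines of the neighbouring tile at 68973001 to 68974000, which is no member, followed the first 7, with 77.6 ± 2.6% in NSC (SD, n = 4), 79.2 ± 3.4% at Day 1 and 56.7 ± 6.7% at Day 7. That neighbour was the one tile of 14380 called lower at Day 7 than at Day 1 (edgeR adjusted p = 0.0417). The member itself differed by -12.4 points between the times and did not pass (edgeR adjusted p = 0.504).

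**Figure D4:**
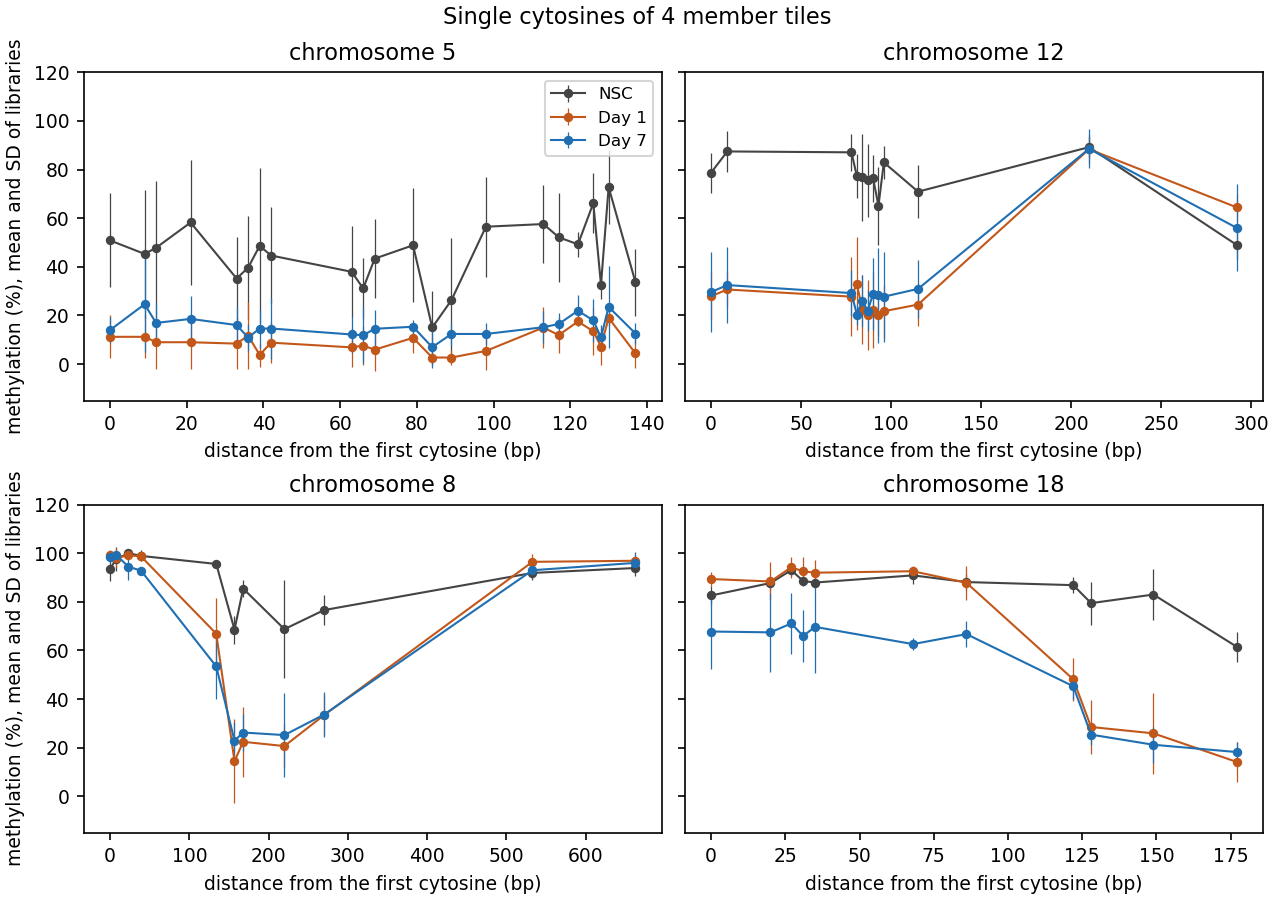
Methylation in percent at single cytosines (points: mean of the libraries of a group, bars: SD) against distance in bp from the first cytosine of the rule in the tile, for 4 members with 11 to 22 cytosines on chromosomes 5, 12, 8 and 18, chosen after their values were seen. Loss covers the whole read stretch on chromosome 5, is bounded on 1 side on chromosome 12 and, at Day 1 only, on chromosome 18, and lies between methylated flanks on chromosome 8.

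Edges between cytosines that lost methylation and cytosines near their NSC level could be counted over all members. In 25 members, 8.56%, a cytosine that had lost 30 points or more, as the mean of both differences, stood next to one within 5 points of its NSC level. There were 33 such edges, and the distance across them had a median of 86 bp and a range of 9 to 473 bp. The same count for gains was 66 of 865 tiles, 7.63%, with a median distance of 58 bp. The limits of 30 and 5 points were chosen after the profiles had been seen. They set no NSC level for the second cytosine, so one that was unmethylated in every group also counts.

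Cytosines that the rule had not used showed the same change on a smaller scale. In 184 members there were 664 further cytosines with at least 5 reads in 3 or more libraries of each group. Their median was 64.8% in NSC, 20.6% at Day 1 and 28.5% at Day 7, with median differences of -24.6 and -21.5 points. Both differences were negative at 495 of them, 74.5%, against 17.9% of such cytosines over all tiles and 7.07% in tiles with gain. They come from the same libraries and often from the same fragments, so they are no independent replication.

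The median difference was smaller at greater distance from the cytosines that defined the members. Unused cytosines within 50 bp had a median difference of -33.9 points at Day 1 and -29.1 at Day 7 (n = 252), and those at 50 to 100 bp had -27.4 and -22.1 (n = 106). At 100 to 200 bp the medians were -22.3 and -16.7 (n = 155), and at 200 to 500 bp they were -4.56 and -4.94 (n = 300). Beyond that they were -2.04 and -1.72 at 500 to 1000 bp (n = 215) and 0 in each bin from 1000 to 10000 bp. The median NSC level was 64.8% within 50 bp, 67.9% at 200 to 500 bp and 62.8% at 500 to 1000 bp. It was 24.9% at 1000 to 2000 bp, 40.4% at 2000 to 5000 bp and 52.9% at 5000 to 10000 bp. Less could be lost in these far bins, and its part in the differences was not tested. The share lower at both times was 86.1% within 50 bp, 80.2% at 50 to 100 bp, 68.4% at 100 to 200 bp and 53.0% at 200 to 500 bp. It was still 47.9% at 500 to 1000 bp, where the lower quartile at Day 1 was -23.3 points, then 27.9% at 1000 to 2000 bp, 22.4% at 2000 to 5000 bp and 18.2% at 5000 to 10000 bp, beside 17.7% of all such cytosines of chromosomes 1 to 20. A minority of cytosines at 500 to 1000 bp was thus well below NSC although the median was near it. Few cytosines near members lay outside the member tiles, and their medians followed no even course, with -40.7 and -36.2 points within 50 bp (n = 4), -1.97 and -11.7 at 50 to 100 bp (n = 9), -22.3 and -18.3 at 100 to 200 bp (n = 39) and -2.38 and -1.15 at 200 to 500 bp (n = 129).

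**Figure D5:**
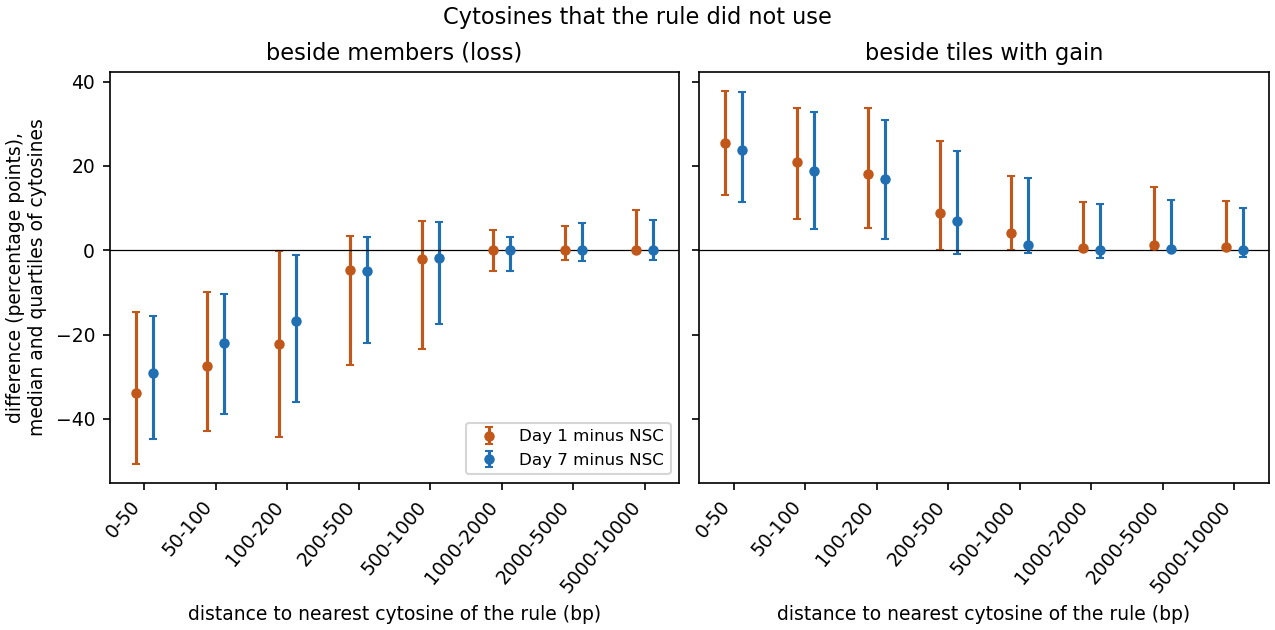
Difference from NSC in percentage points (points: median over cytosines, bars: quartiles) of cytosines that the rule did not use, by distance in bp to the nearest cytosine of the rule, for members (left) and tiles with gain (right). Beside members the Day 1 median goes from -33.9 points within 50 bp to -4.56 at 200 to 500 bp, and beside gains from 25.5 to 8.75.

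Whole neighbouring tiles could seldom be read. Directly beside members, 21 further tiles passed the coverage rule, and their median differences were -0.94 points at Day 1 and -1.72 at Day 7. Of these, 2 had lost 15 points or more at both times but overlapped NSC, on chromosome 13 at 99162001 to 99163000 (45.2%, 21.4% and 28.5%) and on chromosome 16 at 58174001 to 58175000 (54.6%, 24.5% and 25.1%). Both differences were negative in 9 of the 21 and positive in 3, beside 2846 and 8048 of all 14380 tiles. Some had smaller losses, such as the one on chromosome 12 at 33838001 to 33839000 (70.9%, 61.5% and 56.7%). Some were mostly methylated in every group, such as the one on chromosome 13 at 85083001 to 85084000 (91.6%, 94.4% and 90.4%). Some were unmethylated in NSC and could hardly fall, such as the one on chromosome 11 at 70130001 to 70131000 (0.19%, 0.65% and 0.21%). Beside tiles with gain, the 48 readable neighbours had medians of 10.2 and 7.38 points. The only adjacent pair of members was on chromosome 3, at 41693001 to 41694000 (82.4%, 45.5% and 31.3%) and 41694001 to 41695000 (63.4%, 31.4% and 31.1%), where all 9 cytosines were lower at both times.

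Between Day 1 and Day 7 no member passed the test. Over all 14380 tiles, edgeR called 1 lower (0.00695%) and 1 higher (0.00695%) at Day 7, and 0 of the 292 members. An unadjusted edgeR p below 0.05 was reached by 26 members, 8.90%, beside 8.37% of all tiles, and limma on the percent values called 4 tiles, 0.0278%, and 0 members. The miss of the threshold does not show that the members were level. Both groups entered the rule, which left out tiles less than 15 points below NSC at either time. The member counts and shares of this paragraph are therefore description only. The median difference of Day 7 from Day 1 was 1.86 points, with a range of -20.96 to 37.6, and 177 members, 60.6%, were higher at Day 7, beside 35.9% of all tiles. In tiles with gain, where lower is nearer to NSC, 39.1% were higher at Day 7 and the median difference was -1.27 points. A median shift toward NSC was thus not particular to the members. A difference of at least 10 points was seen in 69 members, 54 upward and 15 downward, that is 23.6% against 9.71% of all tiles. The share was 10.6% in tiles with gain and 11.8% in all tiles with an NSC mean of 15% or more. Members also had a larger SD within the operated groups than all tiles, and its part in these differences was not tested.

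Some members had a Day 7 mean much nearer to NSC than the Day 1 mean, without passing the test. On chromosome 3 at 156419001 to 156420000 the NSC libraries read 55.8%, 58.6%, 55.0% and 56.9%, the 4 Day 1 libraries 16.7%, 13.0%, 11.5% and 23.6%, and the Day 7 libraries 40.6%, 44.2%, 30.4% and 31.8%. No pair of groups overlapped, and Day 7 lay 20.5 points above Day 1 (edgeR adjusted p = 0.337). On chromosome 15 at 48586001 to 48587000 the Day 1 libraries read 31.3%, 46.2%, 44.7% and 57.2% and the Day 7 libraries 63.8%, 72.2%, 81.4% and 75%, below NSC at 92.9% to 98.0% and again without overlap (28.2 points, edgeR adjusted p = 0.410). The widest upward difference was on chromosome 12 at 22503001 to 22504000, with 18.2 ± 5.8% at Day 1 (SD, n = 4) and 55.8 ± 14.7% at Day 7 (SD, n = 4). It had 11 to 102 reads per library and an NSC mean of 94.4% (edgeR adjusted p = 0.417).

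Other members had a lower mean at Day 7 than at Day 1, also without passing the test. On chromosome 13 at 85082001 to 85083000 the 4 Day 1 libraries read 38.7%, 35.3%, 38.5% and 40.5% and the Day 7 libraries 20.8%, 34.1%, 4.7% and 13.9%, after 57.6% to 79.8% in NSC (edgeR adjusted p = 0.487). The widest downward difference was on chromosome 9 at 102513001 to 102514000. It read 64.1 ± 3.6% at Day 1 (SD, n = 3) and 43.2 ± 13.9% at Day 7 (SD, n = 3), on 33 to 63 reads per library (edgeR adjusted p = 0.720). The chromosome 3, 15, 12, 13 and 9 tiles of these comparisons were chosen after their values were seen. Without Day 7 replicate 3, 1 member was called, the tile on chromosome 19 at 54823001 described above (edgeR adjusted p = 0.00583).

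Members were scattered singly along the chromosomes. Another member lay within 100 kb of 24 members, 8.22%, whereas 17.6% of tiles with gain had another such tile that near, and the median distance to the next was 1519 kb and 492 kb; with fewer tiles in a set larger distances follow. Every chromosome from 1 to 20 held members, from 1.24% of its tiles on chromosome 18 (5 of 404) to 3.14% on chromosome 14 (18 of 574). The median member listed 14 CpG pairs, with the cytosines of both strands counted once. The median was 13 in tiles with gain and 12 in all tiles with an NSC mean of 15% or more. At least 30 were listed in 22 members, 7.53%, against 3.70% and 3.44%. Dense unmethylated tiles had at least 20 listed CpG pairs and under 10% methylation over the pooled NSC reads. CpG-dense promoters often take this form. Such a tile lay within 2 kb of 23 members, 7.88%, and of 7.05% of tiles with gain. Over all tiles with an NSC mean of 15% or more the share was 4.35%. Within 10 kb the shares were 27.7%, 23.7% and 16.8%. The members were not above all 14380 tiles in these measures. Over all tiles the median was 14 pairs, 13.9% listed at least 30, and the shares within 2 kb and 10 kb were 21.1% and 31.8%. All tiles include those with an NSC mean below 15%, and 2190 are dense unmethylated tiles themselves. These differences in position and density were not tested.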

How the data were processed

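DNA was cut with MspI, bisulfite-converted and sequenced, per the labels' protocols. The submitters' processing notes name the assembly mRatBN7.2, Bismark 0.23.0, methylKit 1.14.2, FastQC and Trim Galore, without roles. The deposited files give, for each CpG cytosine with at least 5 reads, a methylated read count, a total read count and a percent. Both counts were used as deposited. The deposited percent was not used in tests: tile percent was recomputed as summed methylated over summed reads at cytosines with 10 reads.

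Of 14 samples, 13 had a file. Groups came from the label that gives the time, and replicates were numbered in accession order and pair nothing. Sample codes run in group order, so processing order cannot be told apart from group. The members and all lists were chosen with earlier results of these data known. Methylated and unmethylated counts per tile were fitted with edgeR 4.0.16 (R 4.3.3), with one effect per library, group effects and all 3 groups in the fit, and Benjamini-Hochberg adjustment over 14380 tiles. Of these steps, the edgeR test of Day 7 against Day 1 was tried on simulated counts. Tables were made with Python 3.11.15, numpy 2.4.6, scipy 1.17.1 and pandas 2.3.3, and figures with matplotlib 3.10.9.

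Tiles named by rule were the 6 largest drops among members read at every cytosine in every library and the 6 among all members, members called between Day 7 and Day 1, adjacent members, and the 2 nearest tiles on each side of the limit. Members in listed genes or promoters were also to be named, but 10 gene lists and 12 motifs were not run, because annotation and sequence of the files' assembly were not used here. Alternatives were minimum reads of 5 and 20, cytosines in all libraries, at least 5 cytosines, 500 bp tiles, the mean of cytosine percents, a cap on reads, thinning to 10 reads, other limits, no condition on overlap, limma 3.58.1, only Day 1 and Day 7 in the fit, no minimum difference, centred libraries, and leaving out each library.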

Additional observations from a re-analysis of the deposited data

Results flagged for a closer look

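Values that stood apart from the rest of their group by Dixon's criterion were found in 3 of 46 groups of 4 or 5 libraries examined, over the tiles named by rule and the medians of the fully read members, where chance flags about 1 in 20. In the chromosome 19 tile at 54823001 to 54824000, NSC replicate 1 was the lowest NSC library at 48.1%, with the nearest other at 55.7%. In the chromosome 1 tile at 245397001 to 245398000, Day 1 replicate 4 was the highest Day 1 library at 37.3%, with the nearest other at 14.3%. In the same tile, Day 7 replicate 4 was the highest Day 7 library at 18.7%, with the nearest other at 16.4%.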

How the results depend on the processing

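The number of members followed how many tiles could be read. It was 974 of 64549 tiles with a minimum of 5 reads (237 of the 292 among them), 65 of 2866 with 20 reads (60 among them), 24 of 883 with cytosines covered in all libraries (23 among them) and 80 with at least 5 cytosines per tile. Leaving out each library and applying the coverage rule again gave 150 to 299 members, with 173 without Day 7 replicate 1 and 150 without Day 7 replicate 4, when fewer tiles were read (6733 without the latter). With the tiles kept, an alternative added after seeing the data, it gave 287 to 316. With limits of 10, 20 and 25 points it was 331, 239 and 195, and 402 with no condition on overlap. The share of all tiles called, in both directions, was 15.15% at Day 1 and 9.138% at Day 7; it was 9.052% and 4.773% with 5 reads, 23.17% and 16.09% with 20 reads, 9.451% and 5.8% after thinning, and 11.96 to 19.43% and 6.941 to 11.94% leaving out each library; the cause was not tested. Calls between Day 7 and Day 1 among members were 0 in all alternatives run except without Day 7 replicate 3, which gave 1 (range 0 to 1). The median Day 1 difference of unused cytosines was -13.8 points with 20 reads and -26.7 to -16.6 leaving out each library (-17.3 without Day 7 replicate 4). Centring each library by its median over all tiles moved the members' medians to -43.8 and -37.7 points. The median Day 1 difference of neighbouring tiles changed sign, from -2.60 to 2.09, leaving out each library. No paired analysis was possible because the labels carry no replicate numbers. Depth limits Day 1 replicate 2 most, and the 5 large drops outside the fully read members rest on as few as 11 reads in a library.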
